A study of Homo sapiens with 3 samples.

Results

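The interferon response and antigen presentation genes followed here are a list of 42 genes given by symbol. The rule for membership uses no measured value, but the list was chosen with earlier results of these data known. A probe matched 41 of them, out of 21610 genes with a matched probe on the array, and IFI27 had no matched probe. Of these 41, 38 were well above background on all 3 arrays. The other 3, IFI44L, XAF1 and SAMD9L, were well above background on none of them.

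HT29, the cells used, is an established human line from a colon adenocarcinoma, and the sample records name no genetic alteration, drug or interferon. RNA came from cells on tissue culture polystyrene (TCP), the usual flat plastic, on chitosan membranes (CS), which are films of a polysaccharide made from chitin, and on chitosan membranes carrying grafted hyaluronan (CSHA), a polysaccharide of the extracellular matrix. Each condition was measured on 1 single-colour array, all 3 arrays lying on 1 slide. With single arrays, nothing shows how far cultures of the same kind would differ, so the differences have no replicate check and carry no p-value. The time in culture before the RNA for the arrays was taken is not given in the sources used here.

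Interferons are secreted proteins that warn neighbouring cells of infection. Type I and type III interferons bind receptors coupled to the kinases JAK1 and TYK2, and the signal reaches a complex that contains STAT2 and IRF9 and switches on many interferon-stimulated genes through a short DNA element, the interferon-stimulated response element. The products sense viral RNA, block viral entry and replication, or cut, transport and display peptides on MHC class I molecules, and type III interferons such as IFNL1 act mainly on epithelia such as the gut lining.

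The response element is spelled here as GAAA, any 2 bases and GAAA again, read on both strands, so that TTTC, any 2 bases and TTTC counts as the same element on the other strand and overlapping matches count separately. In windows from 250 bases before to 50 bases after each gene's start, taken from RefSeq on GRCh38.p14, these letters occurred in 3.57% of 35116 windows and for 4.38% of 27305 genes. Of the members, 34 had such a window, and 22 of them, or 64.7%, held the letters. The windows of 8 members, USP18, IFIT2, MX2, OASL, IFITM2, OAS2, IRF7 and HLA-E, were not in the table. The stretches below show the letters in capitals, in the direction of each gene, for members that the comparisons turn on: IFITM1, RSAD2 and IFIH1, which were at least 2-fold higher on CSHA, ISG15 and IFIT1, the most familiar interferon-induced genes, BST2 and B2M, which were bright on every array, and IFNL1, the ligand. A match of letters is a description of the sequence and not evidence that a factor was bound.
IFITM1 (chr11:313985-314058, plus strand): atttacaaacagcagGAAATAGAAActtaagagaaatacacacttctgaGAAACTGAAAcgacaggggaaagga
RSAD2 (chr2:6877617-6877656, plus strand): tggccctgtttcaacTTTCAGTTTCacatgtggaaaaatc
IFIH1 (chr2:162318681-162318858, minus strand): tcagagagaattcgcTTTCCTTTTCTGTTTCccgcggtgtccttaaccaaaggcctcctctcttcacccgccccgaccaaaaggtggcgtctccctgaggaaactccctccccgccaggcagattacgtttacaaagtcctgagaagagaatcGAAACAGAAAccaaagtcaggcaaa
ISG15 (chr1:1013369-1013414, plus strand): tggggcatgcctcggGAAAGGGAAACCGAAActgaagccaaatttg
IFIT1 (chr10:89392492-89392544, plus strand): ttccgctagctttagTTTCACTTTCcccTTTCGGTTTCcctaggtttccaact
BST2 (chr19:17405730-17405775, minus strand): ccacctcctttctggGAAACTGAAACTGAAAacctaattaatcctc
B2M (chr15:44711358-44711403, plus strand): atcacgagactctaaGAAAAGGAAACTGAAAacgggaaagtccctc
IFNL1 (chr19:39296178-39296223, plus strand): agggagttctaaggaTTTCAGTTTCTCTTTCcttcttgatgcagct

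The capitals in ISG15, BST2 and B2M run longer than a single element because 2 matches overlap and share their middle letters, and the same holds on the opposite strand in IFIH1 and IFNL1. In IFITM1 the matches begin 40 and 6 bases before the start of the gene and in IFIH1 the last begins 21 bases before it, while in the other genes shown all matches lie further upstream. A second element, TTCNNNGAA, the core letters bound by STAT dimers after interferon gamma, occurred in 7.66% of all windows and for 9.38% of all genes, and for 10 of the 34 members, or 29.4%.

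Levels are log2 values of the background-corrected spot signal less the 75th percentile of that signal on the same array, and each gene is represented by its brightest probe. Raw signals are printed before that scaling, and since the 75th percentile was 354, 423 and 337 on TCP, CS and CSHA, equal raw signals on CS and TCP stand for a lower level on CS. Probes printed 10 times on each array gave the spread among spots at like brightness. For a difference between arrays this SD was 0.18 on the log2 scale for the dim members and 0.05 to 0.10 for the brighter ones, and it leaves out differences between cultures. Probes well above background made up 48.6% to 51.1% of the probes, and no spot was saturated.

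As a check of the cells, 9 of 10 markers of colon epithelium were well above background on TCP and all 10 on CS and CSHA, the exception being GPA33 on TCP. Of 8 stromal and endothelial markers, VIM, PECAM1 and VWF were well above background on TCP and PECAM1 and VWF on CS and on CSHA, with a summed raw signal of 138, 127 and 111, while COL1A1, COL1A2, COL3A1, DCN and LUM were well above background on no array. Of 12 leukocyte markers, 5 were well above background on TCP, 4 on CS and 5 on CSHA. Their summed raw signal was 1231, 1842 and 2065, most of it from CD14, a receptor for bacterial lipopolysaccharide. Relative to TCP, CD14 was at 0.50 and the lysosomal protein CD68 at 0.80 on CS, and they were at 1.04 and 1.01 on CSHA, while MS4A1, CSF1R, ITGAX, NKG7 and CLEC4C were well above background on no array. CD14 and CD68 thus moved in the same direction as most members, and the part of these markers in the results was not tested. In RNA from whole cultures, a change in the share of cells that use a gene and a change in RNA per cell cannot be told apart.

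Most members were somewhat higher on the membranes than on TCP, and a few dim ones stood out. On CS, 29 of the 38 measured members were higher and 9 lower than on TCP, where 56.8% of all 14462 genes compared were higher and 43.2% lower. At least 2-fold higher was 1 member, IFITM1, against 1.36% of all genes, and at least 2-fold lower was 1 member, IFNL1, against 1.92%. The median of the members was 0.17 on the log2 scale and that of all genes 0.04. On CSHA, 28 members were higher and 10 lower than on TCP, where 61.7% of all 14623 genes were higher. At least 2-fold higher were 5 members, IFITM1, OAS2, MX2, RSAD2 and IFIH1, against 3.02% of all genes, and IFNL1 was again the 1 member at least 2-fold lower, against 3.98%. Here the median of the members was 0.30 and that of all genes 0.13. Since the members were well above background on all arrays, the share of genes of that kind is the closer background, and past the 2-fold rule it was 0.623% upwards and 0.593% downwards on CS, 1.95% and 3.30% on CSHA, and 0.801% upwards for CSHA relative to CS. Both comparisons use the same TCP array and so are not independent of each other.

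By the spread among spots, 27 members on CS were higher by more than that SD and 6 lower, against 41.7% and 30.1% of all genes. On CSHA 26 were higher and 9 lower by more than it, against 50.8% and 29.7%. For CSHA relative to CS the counts were 22 and 7, against 45.7% and 30.2%. Between the membranes, 28 members had a higher level on CSHA and 10 on CS, and of all 14596 genes 58.5% were higher on CSHA. The median was 0.11 for the members and 0.07 for all genes, and IFITM1 and MX2 were the 2 members at least 2-fold higher, against 2.27% of all genes. No member was at least 2-fold lower, against 2.15%. When the arrays were scaled to spiked-in control RNA in place of the 75th percentile, the median of all genes was shifted by 0.42 on CSHA relative to TCP. That scaling adds 0.41 to every difference between CSHA and TCP and 0.06 to those between CS and TCP, so it turns the sign of each value on CSHA that lies below 0 by less than 0.41. With that scaling 35 members were higher on CSHA than on TCP, as were 83.6% of all genes, and the members' median exceeded the median of all genes by 0.17. The same scaling put 35 members higher on CSHA than on CS, where 85.7% of all genes were higher.

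**Figure D1:**
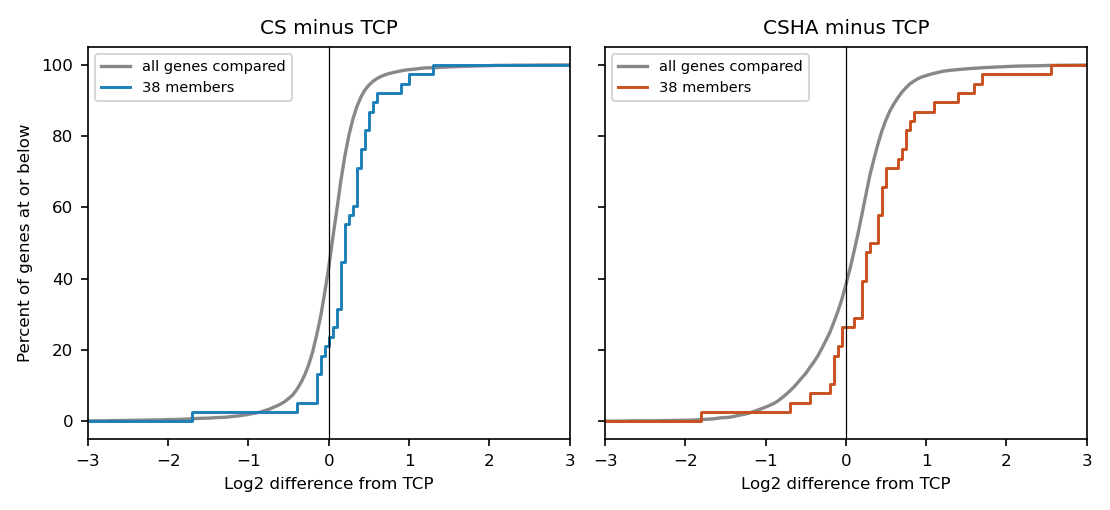
Cumulative share of genes (vertical axis, percent) at or below each log2 difference from TCP (horizontal axis), for CS on the left and CSHA on the right, with all genes compared in grey and the 38 measured members in colour. The members' curve lies to the right of the grey curve through the middle of the range, with medians of 0.17 against 0.04 on CS and 0.30 against 0.13 on CSHA, and crosses it at the low end where IFNL1 lies.

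The cumulative curves show that the offset of the members was small for most of them and came with a long upper end on CSHA. The plot of levels by array shows which members made up that end: IFITM1, MX2 and RSAD2 had raw signals of 36.2 to 42.1 on TCP, close to the lowest signal well above background there, 24.1, and OAS2 and IFIH1 had 93.9 and 486.

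**Figure D2:**
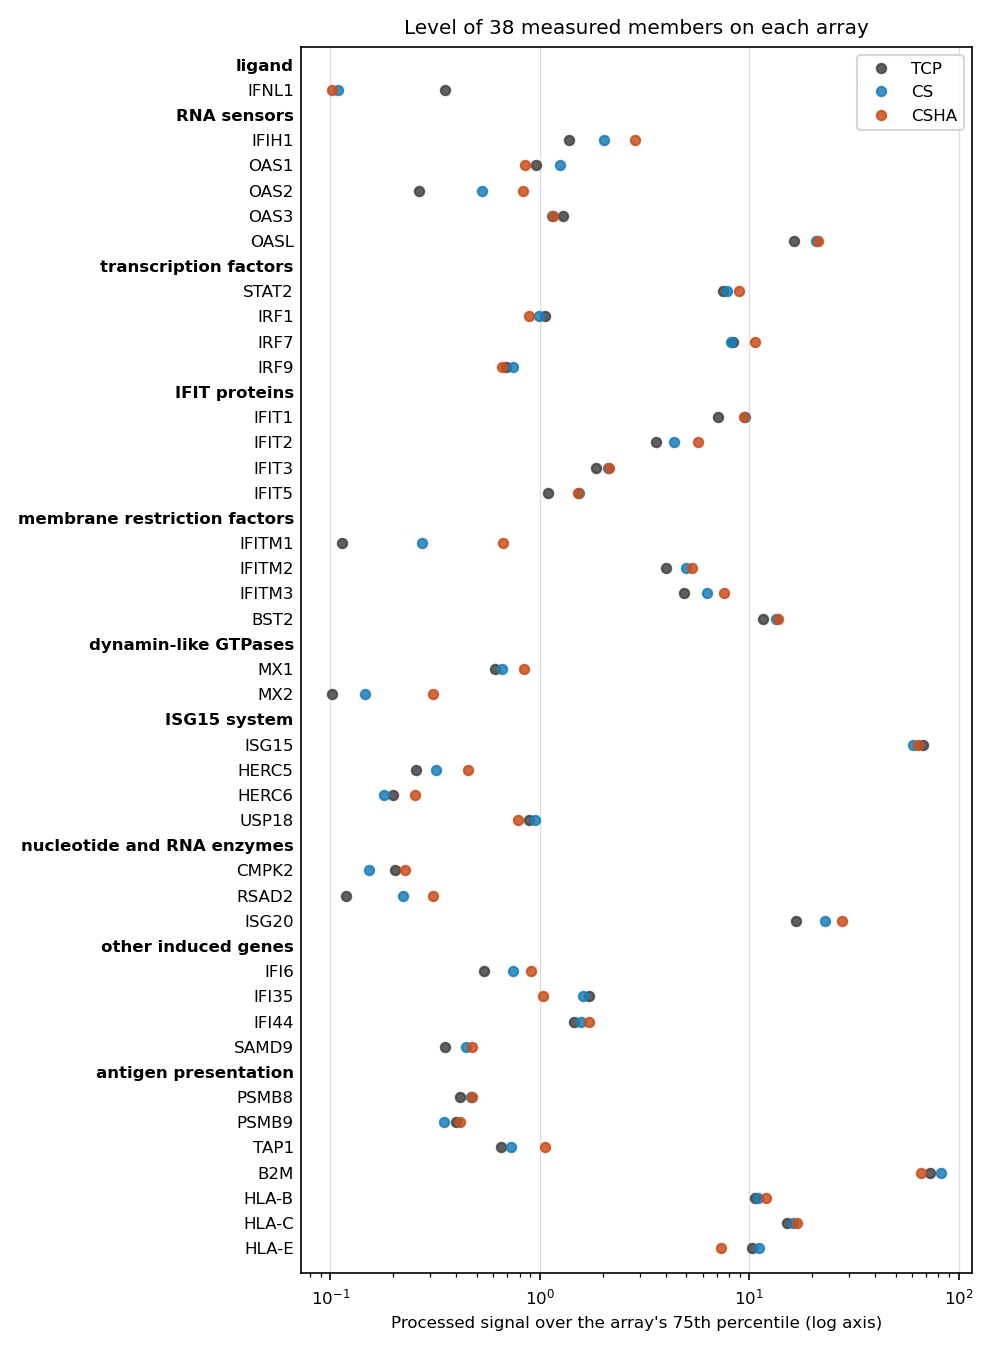
Level of each of the 38 measured members on TCP, CS and CSHA, as processed signal over the 75th percentile of its array on a log axis, 1 point per array, grouped by role. IFITM1, OAS2, MX2 and RSAD2 lie below the 75th percentile on every array and are highest on CSHA, IFNL1 is highest on TCP, and levels of different genes rest on different probes and are not to be set against each other.

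The only ligand on the list, IFNL1, an interferon of the lambda family, was lower on both membranes. TCP gave a raw signal of 125, CS one of 45.8 and CSHA one of 34.2. The difference from TCP was -1.70 on CS and -1.80 on CSHA, or 3.26-fold and 3.48-fold lower, with an SD among spots of 0.18. It ranked 103rd from the bottom of the genes compared on CS and 70th on CSHA. CS and CSHA differed from each other by less than that SD. The value rests on 1 probe, and the related genes IFNL2 and IFNL3 could share its signal. IFNL2 had its own probe, with raw signals of 51.2, 66.1 and 63.3, and was at 0.11 on CS and 0.37 on CSHA. Of the leukocyte markers well above background on any array, CD3E and IL3RA had their highest level on TCP by brightest probe. CD3D, CD14 and CD68 had it on CSHA. PTPRC had it on CS, though another of its probes (raw signals 65.1, 5.91 and 4.58) was well above background on TCP alone. CD3E, a chain of the T cell receptor complex, had raw signals of 122, 20.6 and 34.4 and was well above background on TCP and CSHA. IL3RA, a cytokine receptor, had dim signals of 42.1, 10.4 and 11.8 and was well above background on TCP alone. The part of this in the IFNL1 result was not tested. Background correction by normexp gave -0.89 and -0.77 for IFNL1, and the deposited values gave -0.99 and -0.84, so the 2-fold call was lost in these settings.

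Among the RNA sensors, IFIH1 and OAS2 had the largest differences. IFIH1, which encodes MDA5, a cytosolic receptor for long double-stranded RNA, had raw signals of 486 on TCP, 859 on CS and 961 on CSHA. Its level was higher by 0.57 on CS and by 1.05, or 2.08-fold, on CSHA, with SDs among spots of 0.07 and 0.08. The levels were ordered TCP, CS and CSHA from low to high, and each step exceeded the spread among spots.

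OAS2, an oligoadenylate synthetase that activates RNase L when it meets double-stranded RNA, had raw signals of 93.9, 224 and 281. The difference from TCP was 0.999 on CS, just short of the 2-fold rule, and 1.65, or 3.14-fold, on CSHA, where it ranked 132nd of all genes. A second probe did not exceed background clearly on TCP and gave at least 0.83 on CSHA, and the third was well above background on no array. OAS1, of the same family, had raw signals of 338, 526 and 285. It was higher by 0.38 on CS and at -0.18 on CSHA, or at 0.24 there with scaling to the spike-in probes. OAS3 had raw signals of 455, 483 and 391 and by its brighter probe lay at -0.17 on CS and at -0.15 on CSHA, where spike-in scaling gave 0.26, while its dimmer probe was at 0.10 and 0.37. OASL, a relative without synthetase activity that enhances RIG-I signaling, was bright on all arrays, with raw signals of 5803, 8771 and 7189, and exceeded its level on TCP by 0.34 and 0.38.

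The transcription factors that carry the interferon signal differed little between substrates. STAT2, the partner of IRF9, had raw signals of 2648, 3293 and 3003 and was at 0.06 on CS and 0.25 on CSHA. IRF7, which amplifies type I interferon production, had raw signals of 2964, 3441 and 3612 and was at -0.04 on CS, within the spread among spots, and higher by 0.36 on CSHA. IRF1, which drives many genes of antigen presentation, had raw signals of 373, 420 and 301 and was at -0.08 on CS and -0.24 on CSHA, or at 0.17 on CSHA with spike-in scaling. IRF9, the DNA-binding part of the complex, had raw signals of 244, 313 and 223 and was at 0.10 and -0.06.

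All 4 measured IFIT genes, whose products bind foreign RNA and stop its translation, were higher on both membranes, and they stayed so in all 8 alternative settings. IFIT1 had raw signals of 2509, 4012 and 3179 and lay above TCP by 0.42 on CS and by 0.41 on CSHA. IFIT2 had raw signals of 1275, 1840.1 and 1913 and was higher by 0.27 and 0.66, with its second probe at 0.45 and 0.47. IFIT5 was higher by 0.48 and 0.47 and IFIT3, the smallest, by 0.19 and 0.21. None reached 2-fold. For IFIT1, IFIT3 and IFIT5, the difference between CS and CSHA lay within the SD among spots, while IFIT2 was higher by 0.38 on CSHA than on CS.

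The membrane restriction factors block viruses as they enter or leave the cell, and they held the member with the largest difference. IFITM1, a protein of the plasma membrane that blocks fusion of viruses, had raw signals of 40.3 on TCP, 115 on CS and 225 on CSHA. It was dim on TCP, though well above background there, and its signal was higher on CS and higher again on CSHA. The level was higher by 1.26, or 2.39-fold, on CS and by 2.55, or 5.84-fold, on CSHA, with an SD among spots of 0.18. These differences ranked 120th and 25th of all genes. CSHA exceeded CS by 1.29. Its second probe, with raw signals of 15.5, 49.4 and 96.9, did not exceed background clearly on TCP and gave at least 0.78 on CS and at least 2.08 on CSHA, so 2 probes had the same order. In the deposited values the difference of IFITM1 from TCP was 0.56 on CS, short of 2-fold, and 1.499 on CSHA.

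The genes beside it in the family, whose products act in endosomes, were brighter and moved less. IFITM2 had raw signals of 1419, 2099 and 1802 and lay above TCP by 0.31 on CS and by 0.41 on CSHA. IFITM3 had raw signals of 1730.0, 2659.8 and 2565 and was higher by 0.37 and 0.64. The 3 IFITM genes are near-identical over parts of their transcripts, so a probe for one may also take up RNA of another. BST2, or tetherin, which holds budding viruses at the cell surface, had raw signals of 4118, 5684 and 4631 and was higher by 0.21 and 0.24. The second BST2 probe disagreed on CSHA: its raw signals were 2834, 3511 and 925, which gives 0.05 on CS and -1.55 on CSHA, and the mean over both probes was at -0.65 there. With that exception the 4 genes were higher on both membranes in all 8 alternatives.

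The dynamin-like GTPases MX1 and MX2 trap viral nucleoproteins and capsids. MX2 had raw signals of 36.2, 61.5 and 104, the lowest on TCP and the highest on CSHA. Its level was higher by 0.51 on CS and by 1.59, or 3.02-fold, on CSHA, and CSHA exceeded CS by 1.08, all with an SD among spots of 0.17 to 0.18. MX1 had raw signals of 216, 278 and 284 and was higher by 0.11 and 0.46. MX2 was close to background, and the deposited values placed it at 0.08 on CS and 0.74 on CSHA.

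In the ISG15 system, which couples the ubiquitin-like protein ISG15 to other proteins, the modifier itself differed little. ISG15 had raw signals of 24007, 25607 and 21682 and was at -0.16 on CS and -0.08 on CSHA, or at 0.34 on CSHA with spike-in scaling. HERC5, the main ligase for ISG15 in human cells, was printed 10 times on each array and gave a mean level of -1.96 ± 0.08 on TCP, -1.64 ± 0.26 on CS (SD, 10 spots each) and -1.14 ± 0.07 on CSHA (9 spots). It was thus higher by 0.32 on CS and 0.83 on CSHA, and on CSHA the ranges of the spots did not overlap with those on TCP. The spots on CS, from -1.87 to -0.97, overlapped those on TCP, from -2.09 to -1.83. HERC6, a related gene, had raw signals of 70.6, 76.3 and 85.8 and was at -0.14 on CS and 0.35 on CSHA, while its second probe was at 0.61 and 0.45. USP18, the protease that removes ISG15 and dampens the receptor, had raw signals of 313, 401 and 264 and was at 0.10 and -0.18, or at 0.24 on CSHA with spike-in scaling.

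RSAD2, or viperin, which makes a nucleotide that ends viral RNA chains, had raw signals of 42.1, 93.4 and 104. It was low on TCP and higher on both membranes, by 0.89 on CS and by 1.38, or 2.60-fold, on CSHA, with an SD among spots of 0.18. It was measured by 1 probe, and the deposited values placed it at 0.28 and 0.66. CMPK2, a nucleotide kinase encoded next to RSAD2 in the genome, had raw signals of 71.9, 64.7 and 76.6 and was at -0.41 on CS and 0.16 on CSHA. Its second probe, of raw signals 21.7, 73.3 and 5.42, was well above background on CS alone and gave at least 1.35 there, so the probes of CMPK2 disagreed and no direction is given for it. ISG20, an RNA exonuclease, was bright, with raw signals of 5931, 9669 and 9398, and was higher by 0.45 and 0.73.

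**Figure D3:**
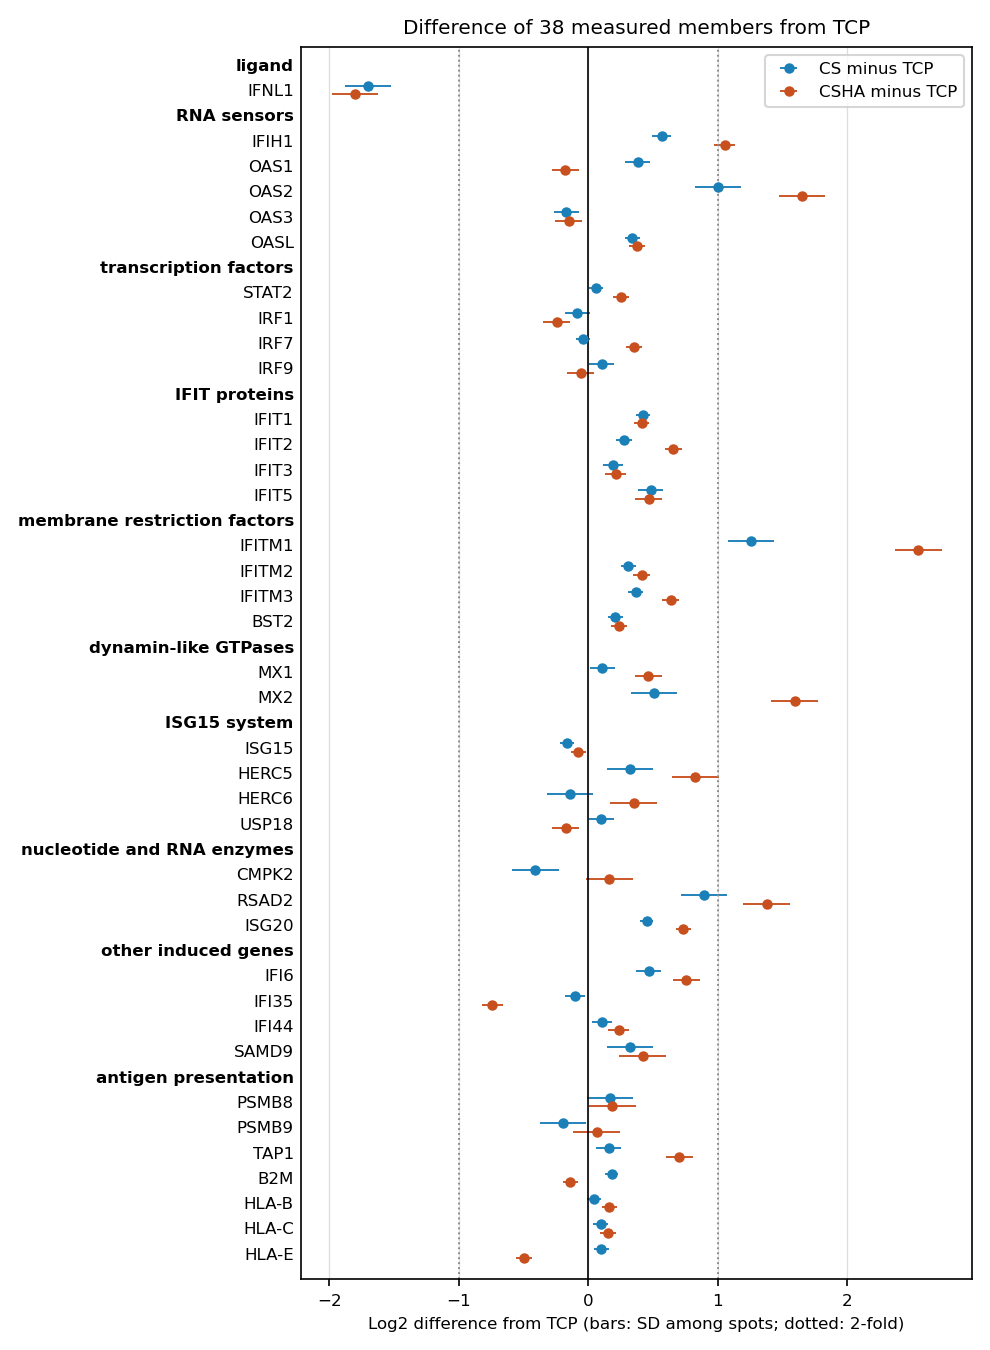
Log2 difference from TCP of each of the 38 measured members on CS and CSHA, 1 point per array pair with bars of 1 SD among spots at the gene's brightness, grouped by role and with dotted lines at 2-fold. IFITM1 lies at 1.26 and 2.55, IFNL1 at -1.70 and -1.80, and most other members lie between 0 and 1 on both membranes, with the 75th percentile scaling, while spike-in scaling would move every point for CSHA by 0.41 to the right.

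The plot of differences by role shows that no role lay wholly above 2-fold and that the larger differences on CSHA were spread over several roles. Of the other induced genes, IFI6, an inhibitor of apoptosis in mitochondria, had raw signals of 191, 315 and 307 and lay above TCP by 0.47 on CS and by 0.76 on CSHA. IFI35 went the other way, with raw signals of 611, 679 and 348, and was at -0.10 on CS and -0.74 on CSHA, the lowest member after IFNL1. SAMD9, an antiviral factor, was higher by 0.32 and 0.42, and IFI44 by 0.11 and 0.24. The raw signals of the genes not above background were 5.22, 4.58 and 20.5 for IFI44L, 18.7, 9.35 and 10.2 for XAF1 and 5.26, 5.58 and 6.38 for SAMD9L, where a signal had to reach about 24.1, 21.1 and 22.6 on TCP, CS and CSHA to stand well above background. No difference is given for these genes.

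The genes of antigen presentation differed little for the most part. On CS 6 of 7 were higher, with a median of 0.10, and on CSHA 5 of 7, with a median of 0.15, where 56.8% and 61.7% of all genes were higher. Quantile normalization and the 75th percentile over detected probes each left 5 higher on CS, against 52.7% and 48.7% of all genes. Spike-in scaling put 6 higher on CSHA, against 83.6% of all genes. TAP1, a subunit of the transporter that carries peptides into the endoplasmic reticulum, was the largest difference, with raw signals of 232, 309 and 359. It was higher by 0.16 on CS and by 0.70, or 1.63-fold, on CSHA, with an SD among spots of 0.10. The immunoproteasome subunits, which shape the peptides, were dim. PSMB8 had raw signals of 147, 197 and 160 and was at 0.17 and 0.19, close to the SD of 0.18, and PSMB9, encoded beside TAP1, had raw signals of 141, 147 and 141 and was at -0.19 and 0.07.

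B2M, the invariant light chain of MHC class I, was printed 10 times on each array. TCP had a mean B2M level of 6.19 ± 0.02, CS of 6.37 ± 0.03 and CSHA of 6.05 ± 0.03 (SD among 10 spots of 1 array), which gives 0.18 on CS and -0.14 on CSHA. The spots of the 3 arrays did not overlap, but spots of 1 array do not show how far cultures differ. The sign of B2M on CSHA turned, to 0.28, with spike-in scaling. Of the heavy chains, HLA-B had raw signals of 3782, 4654 and 4036 and was at 0.04 and 0.16, with its second probe at 0.12 and 0.17. HLA-C was at 0.10 and 0.15. HLA-E, a nonclassical chain that presents signal peptides to natural killer cells, had raw signals of 3655, 4681 and 2468 and was at 0.10 on CS and -0.50 on CSHA. It was lower on CSHA in all 8 alternatives, though at -0.08 with spike-in scaling. The class I heavy chains are near-identical to each other, so their probes may take up RNA of several of them.

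Members with and without the letters of the response element near their start can be set side by side as a description. Of the 22 members with the letters, 20 were measured, and 17 of these were higher on CS and 16 on CSHA, with medians of 0.26 and 0.44. Of the 12 without, 10 were measured, and 5 were higher on CS and 6 on CSHA, with medians of -0.02 and 0.11. The share of all genes compared that lay above TCP was 56.8% for CS and 61.7% for CSHA. No such share was taken over all genes holding the letters, so a link between letters and direction was not tested. Members without a window fall in neither group. Of these, OAS2, MX2, OASL, IFIT2 and IFITM2 lay above TCP for both membranes, USP18 and HLA-E for CS only, and IRF7 for CSHA only. ISG15, B2M and IFNL1 are among the members with 2 overlapping matches in the stretches printed above, and these genes were at -0.08, -0.14 and -1.80 on CSHA (of which spike-in scaling turned the sign of ISG15 and B2M), while IFIH1, also with overlapping matches, was at 1.05. BST2, with 2 overlapping matches as well, was at 0.24 by its brighter probe and at -1.55 by the other.

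A longer list of 98 other genes of these pathways, from the receptors to MHC class II, had shares of higher genes near those of all genes. Of them 97 had a matched probe and 15 were well above background on no array, among them the ligands IFNB1, IFNG, IFNA2, IFNK and IFNL3 and the class II genes CIITA, CD74 and HLA-DRA. On CS 47 of 79 compared, or 59.5%, were higher and 32 lower than on TCP, where 56.8% of all genes were higher. Their median was 0.09, and 0 were at least 2-fold higher. On CSHA 52 of 80 were higher and 28 lower, where 61.7% of all genes were higher, with a median of 0.20. Past the 2-fold rule of size were 3 upwards and 3 downwards, or 3.75% each, against 3.02% and 3.98% of all genes. Between the membranes 52 of 80 were higher and 28 lower on CSHA, where 58.5% of all genes were higher, with a median of 0.12.

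NLRC5, the activator of MHC class I genes, was at least 2-fold higher on CSHA than on either other substrate. It had raw signals of 66.5, 69.0 and 169 and was at -0.20 on CS and 1.42 on CSHA. NLRC5 was dim, its second probe was well above background on no array, and it stayed past 2-fold against TCP in 6 of 8 alternative settings, the deposited values giving 0.93. HLA-F and HLA-G, class I heavy chains, were at -0.53 and -0.30 on CSHA by their brightest probes, and spike-in scaling turned the sign of HLA-G. GBP2, an interferon-induced GTPase that attacks intracellular pathogens, had raw signals of 70.4, 151 and 145 and was at 0.84 on CS and 1.11 on CSHA, where the deposited values gave 0.67. RTP4, another interferon-induced gene, did not exceed background clearly on TCP, and CS was higher by at least 0.93 and CSHA by at least 1.22. The deposited values gave 0.17 and 0.53 for RTP4, and it stayed past 2-fold on CSHA in 5 of 7 alternative settings.

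At least 2-fold lower on CSHA than on TCP, by brightest probe, were LGALS3BP, TRIM21 and APOL6. They encode a secreted glycoprotein, a cytosolic receptor for antibodies and a protein of the apolipoprotein L family. LGALS3BP had raw signals of 5438, 5477 and 2011 and was at -0.25 on CS and -1.37 on CSHA. TRIM21 had raw signals of 111, 124 and 46.3 and was at -0.10 and -1.19, and it stayed past 2-fold in 5 of 8 alternative settings. APOL6 had raw signals of 876, 643 and 387 and was at -0.70 and -1.11 by its brightest probe. Its other probes were at 0.47 and 0.48 on CS and at 0.57 and 0.20 on CSHA, so no direction is given for it. CTSS, a protease of the class II pathway, had raw signals of 41.5, 4.61 and 4.93 and was well above background on TCP alone, which gives a fall by at least 1.23 on CS and at least 0.80 on CSHA.

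Upstream of these genes the differences were mixed. The other sensors of the IFIH1 family were higher on CSHA, RIGI by 0.82 and DHX58 by 0.84, and on CS by 0.37 and 0.35. IRF3, the factor these sensors activate, was lower on CS by its brightest probe, at -0.26, and on CSHA, at -0.57. The adaptor MAVS was at -0.29 and -0.22 by its brightest probe, but its 7 probes disagreed on CSHA, from -1.02 to 0.96, so no direction is given. IKBKE, a kinase that activates IRF3, had raw signals of 41.7, 95.0 and 22.5 and was higher by 0.93 on CS, while on CSHA it was not well above background and lay at least 1.74 below CS. The deposited values gave 0.20 for IKBKE on CS against TCP and -0.60 on CSHA against CS. The latter difference was at least 2-fold in 5 of 7 alternative settings. The receptor chain for IFNL1, IFNLR1, was higher by 0.17 and 0.56, and IFNGR2, a chain of the interferon gamma receptor, was at -0.12 and -0.82. Of the kinases, JAK2 was at 0.50 and 0.59, JAK1 at -0.16 and -0.42 and TYK2 at -0.38 and -0.02. PIAS1, an inhibitor of interferon signaling, was lowest of the feedback genes at -0.54 and -0.90, and IRF2BP1 was at -0.25 and 0.33. IRF2, highest of the feedback genes on CS, was dim and lay at 0.05 and 0.07, within the spread among spots.

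**Figure D4:**
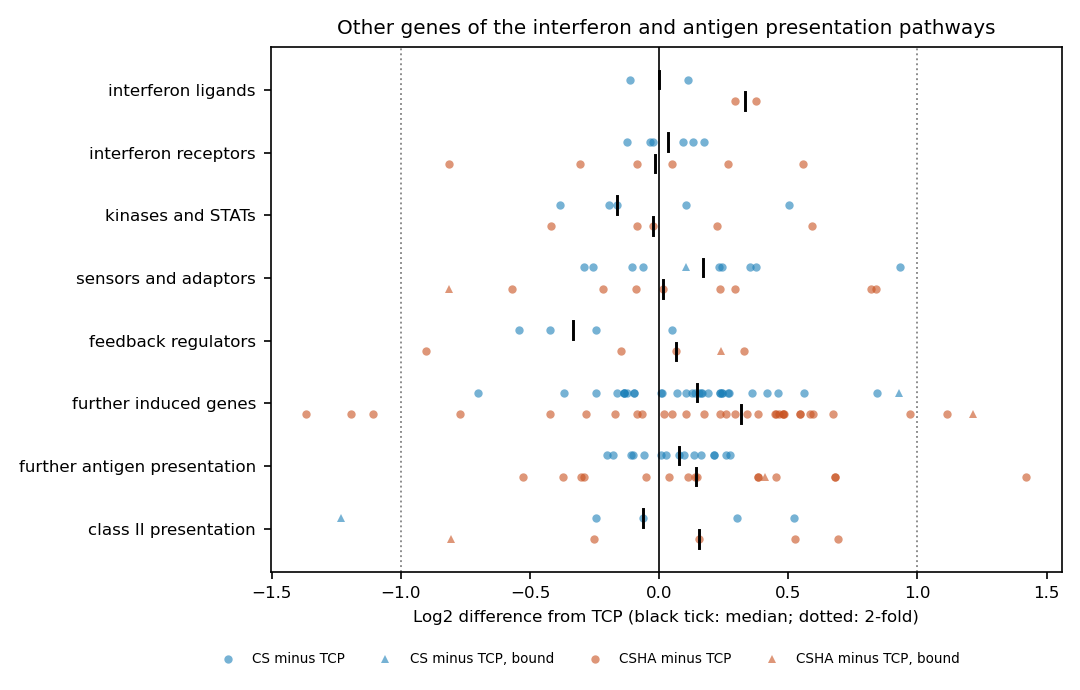
Log2 difference from TCP on CS and CSHA of the other pathway genes compared, 1 point per gene, with triangles for bounds, black ticks at the median of each role and dotted lines at 2-fold. The further induced genes have medians of 0.15 on CS and 0.32 on CSHA, while receptors, kinases and sensors scatter to both sides of 0, and NLRC5 lies at 1.42 on CSHA.

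The plot of the other pathway genes shows the spread widening from CS to CSHA in most roles. All genes compared widened too, with 10th and 90th percentiles of -0.37 and 0.38 on CS and of -0.63 and 0.62 on CSHA. Among the further induced genes, 22 of 32 were higher on CS and 23 of 32 on CSHA, where 56.8% and 61.7% of all genes were higher. TRIM5, a factor that blocks retroviral capsids, was at 0.14 and 0.97. Among the further antigen presentation genes, 10 of 15 were higher on CS and 11 of 16 on CSHA, against the same 56.8% and 61.7%. The chaperone CANX was highest of them on CS at 0.28. Of the class II genes, HLA-DMA was highest by its brighter probe, at 0.52 and 0.69, while its second probe was at 0.24 and -0.09. HLA-DRB1 was at -0.25 and 0.16, and HLA-DPA1 at -0.06 and -0.25.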

How the data were processed

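RNA of HT29 cells from TCP, CS and CSHA was hybridized to 3 single-colour arrays, 1 per condition. The authors deposited spot intensity as the scanner software gave it, corrected for background but not normalized between arrays, and a second table of log2 values, shifted by a constant per array and centred at each spot, which served as an alternative. Per the file headers, Feature Extraction 10.7.3.1 was run on an hg19 design, while the methods name another version of the software and other kits than the sample records do. A floor of 1 and a shift by the 75th percentile, which the methods state, were applied here to the processed intensity on the log2 scale. Control spots and flagged outliers were dropped, and the spots of each probe were averaged. Of 50599 probes, 30004 matched a symbol through RefSeq on GRCh38.p14 and 20595 did not.

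The brightest probe stood for a gene. A gene was compared where well above background on at least 1 of 2 arrays, with a bound, against the lowest signal well above background, where only 1 of them measured it. No test was possible with single arrays, so genes at least 2-fold apart were counted. The members, the pathway and marker lists and the motifs were chosen with earlier results of these data known. All members were accounted for. Values on all arrays were given for those at least 2-fold different and for the highest and lowest of each role, and for further members by choice. Of the pathway genes, those at least 2-fold different and the highest and lowest of each role were named, with others chosen after their values were seen. Marker lists covered colon epithelium, leukocytes and stroma. The calculation was tested on simulated arrays. Alternatives were normexp with an offset of 50 on the median spot signal, since the mean was not a column of the files, quantile normalization, the 75th percentile over detected probes, scaling to 7 of 10 spike-in probes, no filter on dim probes or a filter on all arrays, averaging a gene's probes, the deposited values, and 1.5-fold and 3-fold rules. Calculations used Python 3.11.15 with pandas 2.3.3, numpy 2.4.6 and matplotlib 3.10.9, and R 4.3.3 with limma 3.58.1.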

Additional observations from a re-analysis of the deposited data

Results flagged for a closer look

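In 4 members the membranes lay on opposite sides of TCP, each by more than the SD among spots of the probe. OAS1 was at 0.38 on CS and -0.18 on CSHA. USP18 was at 0.10 and -0.18, B2M at 0.18 and -0.14, and HLA-E at 0.10 and -0.50. These are differences between single arrays that share TCP, and the difference between the membranes was not tested. With scaling to the spike-in probes, OAS1, USP18 and B2M were higher than TCP on both membranes, and HLA-E still lay on opposite sides.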

How the results depend on the processing

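Over 8 alternative settings and 2 other rules of size, 984 values were recomputed, the single-gene values covering 27 members: 796 stayed within the spread among spots (for counts, within 1.5 times), 174 moved beyond it and 14 changed sign after exceeding that spread at first. IFITM1 and OAS2 were the 2 members at least 2-fold higher on CSHA than on TCP in all 8 settings. With normexp and also with the deposited values, the 2-fold rule gave 0 higher and 0 lower members on CS, 2 higher and 0 lower on CSHA, and 0 higher for CSHA against CS. Shares of all genes higher and lower with normexp were 0.396% and 0.722% on CS and 1.06% and 2% on CSHA. For CSHA against CS they were 0.723% and 1.02%. With the deposited values the shares were 0.456% and 0.932%, 1.26% and 2.24%, and 1.05% and 0.989%. In both of these settings, 0 other pathway genes were at least 2-fold lower on CS, 0 were higher on CSHA, and 1 was lower for CSHA against CS. Under quantile normalization, 1 member was at least 2-fold higher on CSHA than on CS, against 1.66% of all genes. The cause of these changes was not tested.

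With scaling to the spike-in probes, 2 members were at least 2-fold higher on CS and 11 on CSHA, against 1.54% and 11.6% of all genes. Of the members 3 were lower on CSHA than on TCP, with a median of 0.72, and 3 were lower on CSHA than on CS, with a median of 0.46. The medians of all genes were then 0.54 and 0.42. Of the other pathway genes, 12 were lower on CSHA than on TCP, where 83.6% of all genes were higher. By the 2-fold rule 12 were higher and 0 lower, against 11.6% and 1.32% of all genes, with a median of 0.61. Relative to CS 11 were lower, where 85.7% of all genes were higher. By the 2-fold rule 3 were higher and 1 lower than on CS, against 6.28% and 0.859% of all genes, with a median of 0.47. The signs of OAS1 (0.24), OAS3 (0.26), IRF1 (0.17), ISG15 (0.34), USP18 (0.24) and B2M (0.28) turned on CSHA against TCP, and those of IRF1 (0.19), IRF9 (0.19), USP18 (0.075) and B2M (0.033) on CSHA against CS. Signs also turned for values within the spread among spots, IRF9 (0.35) on CSHA against TCP and IFNL1 (0.25), IFIT1 (0.34) and IFIT5 (0.34) on CSHA against CS.

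With no filter on dim probes, 2 members, IFNL1 and XAF1, were at least 2-fold lower on CS, and of the other pathway genes 2 passed the rule upwards on CS and 2 on CSHA relative to CS. By the same rule 5.33% of all genes were then lower and 2.93% higher on CS, and 5.14% higher on CSHA relative to CS. With only genes well above background on all arrays, 0 other pathway genes were at least 2-fold lower on CS, against 0.593% of all genes. When the probes of a gene were averaged, 1 member was at least 2-fold lower on CSHA than on CS, against 2.06% of all genes. Signs then turned for CMPK2 (0.55 on CS against TCP and -1.43 on CSHA against CS), OAS3 (0.11 on CSHA) and BST2 (-0.65 on CSHA).

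At 1.5-fold, 3 members were higher on CS, 11 higher and 2 lower on CSHA, and 2 lower on CSHA than on CS. Of the other pathway genes, 3 were then higher and 2 lower on CS, 13 higher and 8 lower on CSHA, and 4 higher on CSHA than on CS. At or below 0.6, close to 1.5-fold, lay 96.1% of all genes on CS, 89.1% on CSHA and 92.7% for CSHA against CS. At or below -0.6 lay 4.82%, 10.9% and 7.06%. At 3-fold, the members higher were 0 on CS, 3 on CSHA and 0 for CSHA against CS. For the other pathway genes the counts were 0 lower on CS, 0 higher and 0 lower on CSHA, and 1 lower on CSHA than on CS. At or below 1.6, close to 3-fold, lay 99.5% of all genes on CS, 99.0% on CSHA and 99.1% for CSHA against CS. At or below -1.6 lay 0.837%, 0.834% and 0.541%. No paired analysis was possible because each condition has 1 array. Signal over background limits IFITM1, MX2, RSAD2 and IFNL1 on 1 or more arrays, where the spread among spots was 0.17 to 0.18 and did not include differences between cultures.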
